A study of Mus musculus with 6 samples.

Results

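Prostaglandins and leukotrienes are lipid mediators made from arachidonic acid, and 10 genes of their synthesis, breakdown and sensing were followed in Hepa1-6 tumors of mice given sorafenib (Sora), a multikinase inhibitor used against hepatocellular carcinoma. The genes are Ptgs1, Ptgs2, Ptges, Ptges2, Ptgis, Hpgd, Ptger2, Ptger4, Alox5 and Alox5ap. They were chosen by role and matched by exact symbol, which found 10 of 10 among the 26167 genes of the expression table. RNA sequencing of bulk tumor tissue covered 3 control tumors (numbered 1, 3 and 4) and 3 Sora-treated tumors (2, 3 and 4). Hepa1-6, spelled Hep1-6 in the sample labels, is a mouse hepatoma line, and all tumors grew under the skin of female C57BL/6J mice, 6 to 8 weeks old, a strain with a full immune system. Sora was injected into the peritoneal cavity at 10 mg/kg on days 9, 11, 13 and 15 after the cells were given. What the control mice received is not given in the sources used here. A tumor under the skin borders skin and not liver. Nothing states whether each library came from a separate mouse, so the p-values measure the spread between these libraries only.

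Arachidonic acid is cut from membrane phospholipids by phospholipase A2. The cyclooxygenases Ptgs1 (COX-1, present in most tissues) and Ptgs2 (COX-2, induced by growth factors, cytokines and injury) turn it into an unstable intermediate, from which dedicated synthases make prostaglandin E2, prostacyclin, thromboxane and others. Along the other branch, Alox5 with its membrane partner Alox5ap starts leukotriene synthesis, mainly in myeloid cells and mast cells. In tumors, prostaglandin E2 is known as a product of tumor, stromal and myeloid cells that acts on nearby immune cells through receptors that include Ptger2 and Ptger4. In bulk tissue, fewer cells of a type cannot be told apart from less RNA per cell.

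The windows around the starts of Ptgs2, Ptges and Ptgs1 are shown because Ptgs2 and Ptges had their highest levels in the same pair of Sora-treated tumors, and Ptgs1 is the other cyclooxygenase. The windows come from the RefSeq table of the GRCm38.p6 mouse build, run 5′ to 3′ on the strand of the gene, and hold 250 bases before and 50 after the annotated start. Of the 10 genes, 8 matched an entry in that table, and Ptgis and Alox5ap did not. Ptgs2 lies on the plus strand at chr1:150099781-150100080, Ptges on the minus strand at chr2:30903248-30903547 and Ptgs1 on the plus strand at chr2:36230176-36230475. Capitals mark letters that match a searched motif on either strand.
Ptgs2: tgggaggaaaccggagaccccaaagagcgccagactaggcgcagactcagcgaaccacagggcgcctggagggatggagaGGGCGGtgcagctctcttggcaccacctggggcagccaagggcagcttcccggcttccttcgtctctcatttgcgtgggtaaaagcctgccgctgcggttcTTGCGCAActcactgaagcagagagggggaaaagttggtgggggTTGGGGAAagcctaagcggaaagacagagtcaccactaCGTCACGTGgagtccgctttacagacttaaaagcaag
Ptges: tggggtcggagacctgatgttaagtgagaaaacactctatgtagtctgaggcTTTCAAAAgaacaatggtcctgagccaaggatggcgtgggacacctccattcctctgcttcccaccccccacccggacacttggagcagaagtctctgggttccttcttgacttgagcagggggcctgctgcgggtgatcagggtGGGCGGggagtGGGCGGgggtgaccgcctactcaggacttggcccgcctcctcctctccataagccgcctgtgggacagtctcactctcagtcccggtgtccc
Ptgs1: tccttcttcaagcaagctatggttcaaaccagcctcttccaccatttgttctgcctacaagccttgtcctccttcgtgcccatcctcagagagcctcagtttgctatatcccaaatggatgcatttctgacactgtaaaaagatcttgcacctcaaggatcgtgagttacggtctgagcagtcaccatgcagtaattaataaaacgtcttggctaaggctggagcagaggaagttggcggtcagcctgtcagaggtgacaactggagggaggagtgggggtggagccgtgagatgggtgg
The motifs searched, on both strands, were the TATA box (TATAAA), the core of the cAMP response element (TGACG), the AP-1 site (TGACTCA, which is TGAGTCA on the other strand), the C/EBP site (TTNNGNAA), the E-box (CACGTG) and the Sp1 GC box (GGGCGG).

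The Ptgs2 window held the cAMP response core, read as CGTCA on the strand shown and overlapping the E-box by the letters CA. It also held a pair of C/EBP matches and 1 GC box. Among all 32851 windows of the same length, 20.8% held that core, 7.15% the E-box, 40.7% a C/EBP match and 35.7% a GC box. The Ptges window held 1 C/EBP match and a pair of GC boxes, and the Ptgs1 window held 0 matches to any of these letters. The TATA box letters were in 13.6% of all windows and the AP-1 letters in 5.20%, and neither was in the 3 windows shown. CG dinucleotides numbered 16 in the Ptgs2 window, 10 in that of Ptges and 6 in that of Ptgs1, against a median of 7. A match of letters is a description of the window and not a binding site.

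Each library held between 31073830 and 36205814 gene-assigned reads. Levels of 1 gene across tumors are given as CPM, read counts divided by the library total and scaled by edgeR's trimmed mean of M-values (TMM), and levels of different genes are compared only as FPKM, which also divides by transcript length. The test was the quasi-likelihood test of edgeR, with p adjusted by the Benjamini-Hochberg method over the 16513 genes tested, and a gene is called where the adjusted p is under 0.05. Fold changes are Sora-treated over control on the log2 scale, with the standard error (SE) and a 95% interval. Across all genes 543 were called, which is 3.29% of those tested. The 321 up-regulated genes were 1.94% and the 222 down-regulated genes 1.34%. The number of calls moved with each library left out: edgeR called 5 genes (0.0306%) without Sora-treated tumor 4, 117 without tumor 2, 1145 without tumor 3, and 174, 316 and 176 without control tumor 1, 3 or 4. Of the hepatoma markers, Alb was present at 1994 to 3510 CPM, while Serpina1a, a gene of mature hepatocytes, had only 1 to 9 reads per library and was not tested.

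By edgeR, 0 of the 10 genes were called, against 3.29% of all genes tested, so Sora was not shown to change the RNA level of any of them. All 10 passed the filter on low counts. Of the 10, 6 were higher in mean in the Sora-treated tumors and 4 were lower, with a median log2 fold change of 0.07, against -0.00037 over all genes tested. The median absolute log2 fold change was 0.18 for the 10 and 0.15 for all genes. At an unadjusted p under 0.05, edgeR gave 1 gene, Ptgs2, while 17.2% of all genes passed that threshold. DESeq2 also called 0 of the 10, with 7.72% of all genes it tested called. At an unadjusted p under 0.05 it gave 2 of the 10 and 17.5% of all genes. For 1 gene, Ptger2, the CPM values of the groups did not overlap, which was so for 22.2% of all genes. The plot of CPM by tumor shows every value.

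**Figure D1:**
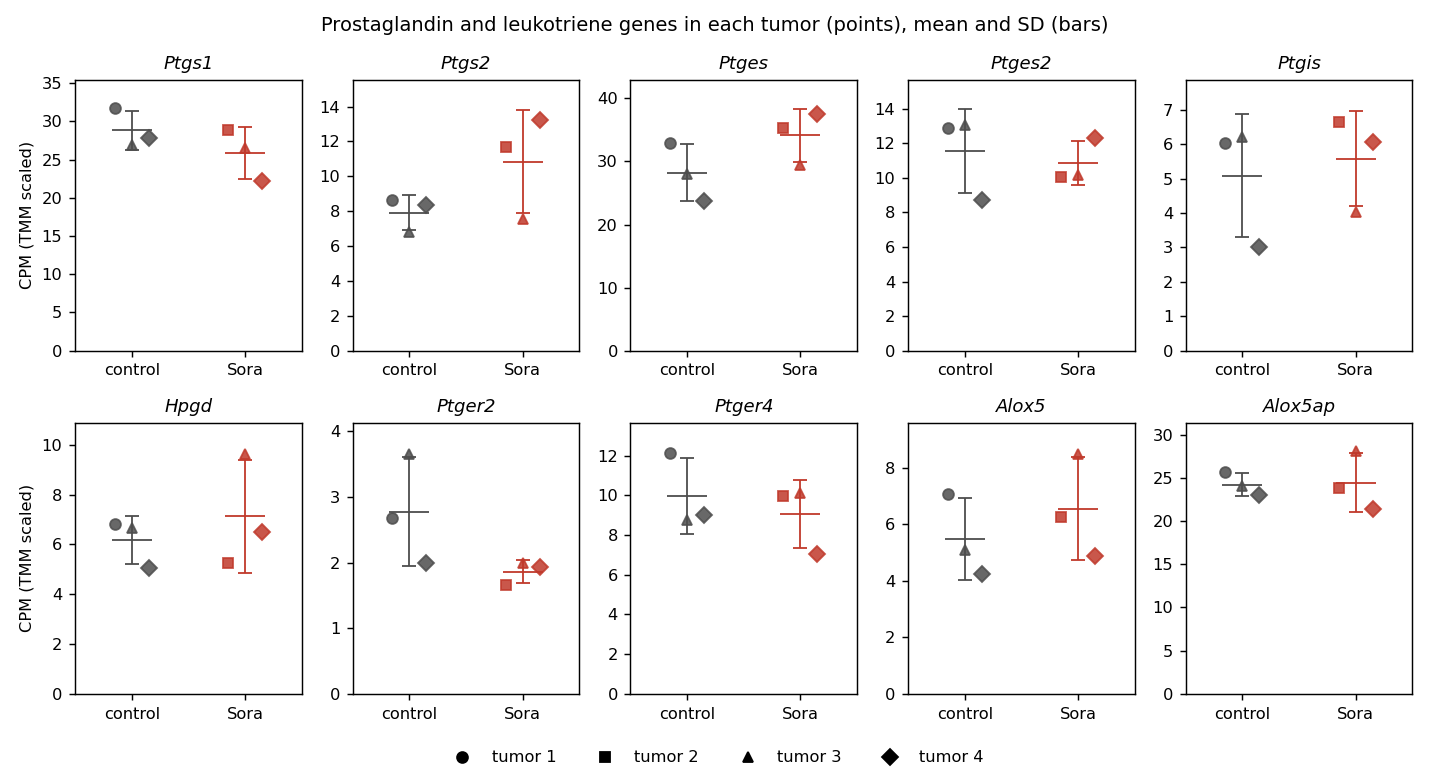
Level of each of the 10 genes (TMM-scaled CPM, each axis from 0) in 3 control and 3 Sora-treated tumors, with the tumor number as the marker and the mean and SD as bars. Ptgs2 was above every control in Sora-treated tumors 2 and 4 (11.7 and 13.3 CPM) and within the control range in tumor 3 (7.57 CPM), and in every gene but Ptger2 the groups overlapped.

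Ptgs2, the inducible cyclooxygenase, showed the largest positive log2 fold change among the 10. Control tumors 1, 3 and 4 held 8.63, 6.79 and 8.33 CPM, against 11.7, 7.57 and 13.3 CPM for tumors 2, 3 and 4 of the Sora group, from 221 to 439 reads per library. Sora-treated tumors 2 and 4 were thus above all controls, and tumor 3 lay between them. The means were 7.92 ± 0.99 and 10.8 ± 2.94 CPM (SD, n = 3 each). The log2 fold change was 0.45 with an SE of 0.20 and an interval from 0.01 to 0.90, a 1.37-fold difference with an edgeR adjusted p of 0.28. Without Sora-treated tumor 3 the fold change was 0.65 and the edgeR adjusted p 0.035, in a fit that called 7.03% of all genes. Without Sora-treated tumor 4 the fold change was 0.28 and the edgeR adjusted p 0.67. A call of Ptgs2 therefore turned on which Sora-treated tumor was left out.

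Ptgs1, the constitutive cyclooxygenase, lay in a narrow range in all tumors. It was at 31.7, 26.9 and 27.9 CPM in the controls and at 28.9, 26.4 and 22.2 CPM in the Sora-treated tumors. The means of 28.8 ± 2.57 and 25.9 ± 3.35 CPM gave a log2 fold change of -0.16 (SE 0.11, interval -0.40 to 0.09, edgeR adjusted p 0.52). Sora-treated tumor 4 had both the lowest Ptgs1 and the highest Ptgs2 of the 6 tumors. The FPKM ratio of Ptgs2 to Ptgs1 was 0.304, 0.282 and 0.334 in the controls and 0.453, 0.320 and 0.666 after Sora. Ptgs1 was therefore the more abundant cyclooxygenase per length in every tumor, and the ratios of the groups overlapped.

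Ptges, the membrane-bound synthase that works with Ptgs2 to make prostaglandin E2, had 32.9, 28.0 and 23.8 CPM in the controls. In the Sora-treated tumors it had 35.4, 29.5 and 37.6 CPM. As for Ptgs2, tumors 2 and 4 of the Sora group were above all controls and tumor 3 was not. The means were 28.2 ± 4.54 and 34.1 ± 4.18 CPM, and the log2 fold change was 0.28 (SE 0.13, interval -0.01 to 0.56, edgeR adjusted p 0.30).

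Ptges2, the second membrane-associated prostaglandin E synthase, was at 12.9, 13.05 and 8.74 CPM in the controls and 10.1, 10.2 and 12.3 CPM after Sora. Control tumor 4 was the lowest of the 6 and the groups overlapped, with a log2 fold change of -0.09 (SE 0.17, interval -0.46 to 0.28, edgeR adjusted p 0.84). The FPKM ratio of Ptges to Ptges2, computed after the values of both genes were seen, was 1.37, 1.15 and 1.46 in the controls and 1.88, 1.55 and 1.63 in the Sora-treated tumors. These ratios did not overlap between the groups, and they were not tested.

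Ptgis makes prostacyclin, a vasodilator formed mainly in the vessel wall. It had 6.04, 6.20 and 3.02 CPM in the controls and 6.65, 4.02 and 6.07 CPM in the Sora-treated tumors. One low tumor in each group, control 4 and Sora-treated 3, set the spread. The log2 fold change was 0.14 (SE 0.29, edgeR adjusted p 0.86), with a wide interval of -0.50 to 0.77, which holds both a fall and a rise of moderate size.

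Hpgd, which oxidizes prostaglandin E2 to an inactive form, had 6.82, 6.66 and 5.07 CPM in the controls and 5.24, 9.65 and 6.49 CPM after Sora. Sora-treated tumor 3, in which Ptgs2 and Ptges were lowest of their group, had the highest Hpgd of all 6. The means were 6.19 ± 0.968 and 7.13 ± 2.27 CPM, with a log2 fold change of 0.21 (SE 0.23, interval -0.30 to 0.71, edgeR adjusted p 0.71).

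Ptger2 and Ptger4 encode the EP2 and EP4 receptors for prostaglandin E2, which both raise cAMP in the cell. Ptger2 had 2.68, 3.65 and 2.001 CPM in the controls and 1.66, 1.996 and 1.93 CPM in the Sora-treated tumors. The groups were apart only by the gap between control tumor 4, with 73 reads, and Sora-treated tumor 3, with 67 reads. The means were 2.78 ± 0.831 and 1.86 ± 0.177 CPM, so most of the spread was among the controls. The log2 fold change was -0.57, the largest in size among the 10, with an SE of 0.29, an interval from -1.20 to 0.06 and an edgeR adjusted p of 0.35.

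Ptger4 was more abundant per length than Ptger2 in every tumor. Its CPM was 12.1, 8.75 and 8.99 in the controls and 9.97, 10.1 and 7.06 in the Sora-treated tumors. The groups overlapped, with a log2 fold change of -0.14 (SE 0.18, interval -0.54 to 0.27, edgeR adjusted p 0.76).

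Alox5, the lipoxygenase that starts leukotriene synthesis, had 7.07, 5.10 and 4.25 CPM in the controls and 6.27, 8.49 and 4.89 CPM after Sora. The highest level was in Sora-treated tumor 3 and the lowest in control tumor 4, and the groups overlapped. The log2 fold change was 0.26 (SE 0.25, interval -0.28 to 0.80, edgeR adjusted p 0.65).

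Alox5ap, the membrane protein that hands arachidonic acid to Alox5, had 25.6, 24.0 and 23.0 CPM in the controls and 23.8, 28.1 and 21.4 CPM in the Sora-treated tumors. Both genes were highest in Sora-treated tumor 3. The Alox5ap means of 24.2 ± 1.34 and 24.5 ± 3.41 CPM gave a log2 fold change of 0.01, and its interval, -0.23 to 0.26, was among the narrowest of the 10 (SE 0.11, edgeR adjusted p 0.97).

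**Figure D2:**
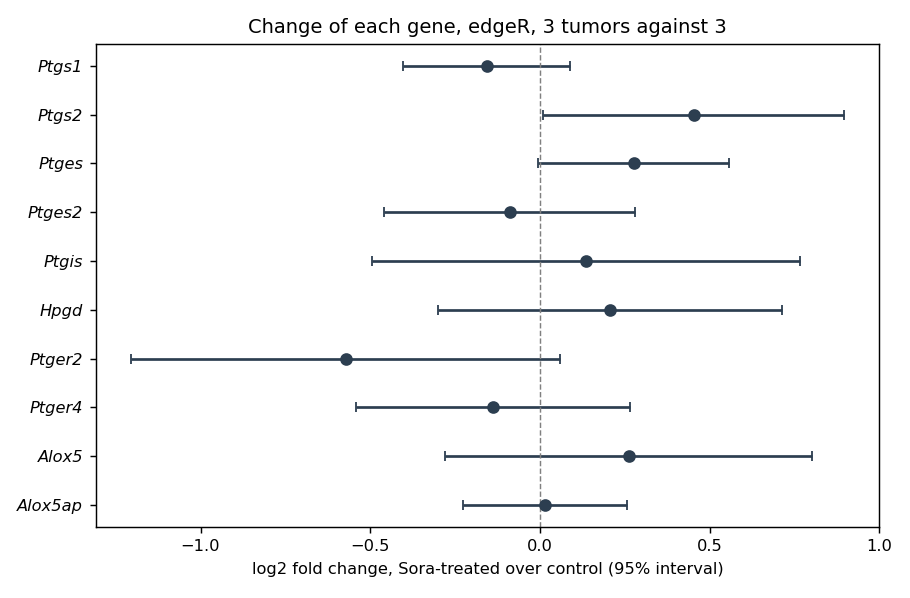
The log2 fold change of each of the 10 genes, Sora-treated over control (horizontal axis, n = 3 tumors each), as points with 95% intervals from edgeR. Only the interval of Ptgs2, 0.01 to 0.90, lies to one side of 0, and those of Ptger2 and Ptgis are the widest.

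Per length, Alox5ap was the most abundant of the 10, with 24.0 ± 1.72 FPKM in the controls, above 82.8% of the genes tested. Ptges followed at 7.77 ± 1.36 FPKM, then Ptges2 at 5.94 ± 1.24, Ptgs1 at 5.91 ± 0.667, Hpgd at 3.61 ± 0.571 and Ptger4 at 3.01 ± 0.642. Ptgis at 2.57 ± 0.901, Ptgs2 at 1.82 ± 0.269 and Alox5 at 1.77 ± 0.501 FPKM were lower, and Ptger2 was lowest at 0.647 ± 0.181 FPKM. The ranges of neighbors over the control tumors overlapped except between Alox5ap and Ptges, Ptgs1 and Hpgd, and Alox5 and Ptger2. Thus Ptges2 and Ptgs1, or Ptgs2 and Alox5, cannot be ordered from these tumors. In the Sora-treated tumors the order of mean FPKM was the same except that Ptgis stood above Ptger4.

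**Figure D3:**
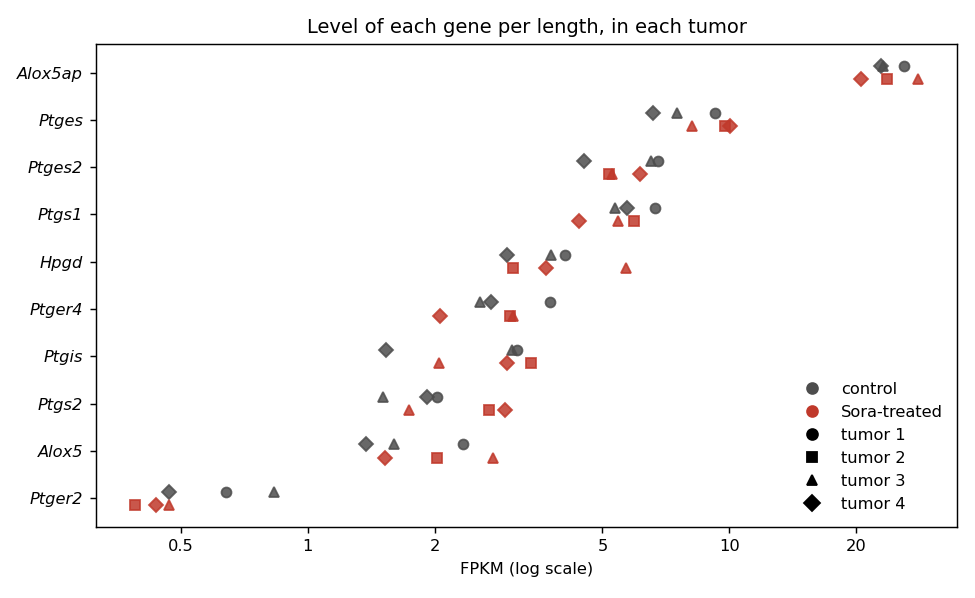
Level per length (FPKM, log axis) of the 10 genes in each tumor, with color for the group and marker for the tumor number. Alox5ap stands above all others and Ptger2 below all others in every tumor, while the 8 genes between them form a graded series in which most neighbors overlap.

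Beyond the 10, a list of 77 other genes of the pathway, from phospholipases to receptors, held 73 in the expression table and 65 tested. Of the 65, 1 was up-regulated and 2 were down-regulated, and 26 were higher and 39 lower in mean, with a median log2 fold change of -0.05. The 3 called were 4.62% of the 65, against 3.29% of all genes. At an unadjusted p under 0.05 there were 17 (26.2%, against 17.2%), and in 14 the groups did not overlap (21.5%, against 22.2%). The called genes were Slco2a1, Acsl4 and Ephx1, of which Slco2a1 acts on prostaglandins themselves.

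Slco2a1 encodes the carrier that takes prostaglandins into cells ahead of their breakdown by Hpgd. Its CPM was 89.9, 79.6 and 85.6 in the controls and 131, 120 and 139 in the Sora-treated tumors. All Sora-treated tumors were above all controls, with means of 85.1 ± 5.17 and 130 ± 9.74 CPM. Slco2a1 rose 1.53-fold, with a log2 fold change of 0.61, an SE of 0.08 and an edgeR adjusted p of 0.0085. Without Sora-treated tumor 4 the log2 fold change was 0.56 and the edgeR adjusted p 0.058. Hpgd, the enzyme that follows this uptake, was not called, and the FPKM ratio of Hpgd to Slco2a1 overlapped between the groups. Of the 6 genes listed under prostaglandin transport and breakdown, 4 were higher and 2 lower in mean. At an unadjusted p under 0.05 there were 4, against 17.2% of all genes. Abcc4, in that role too, was higher with groups apart (log2 fold change 0.35, edgeR adjusted p 0.15).

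Acsl4 attaches coenzyme A to arachidonic acid so that it can enter membrane lipids. It was at 204, 183 and 184 CPM in the controls and at 147, 150 and 153 CPM after Sora, so that the groups were well apart. It fell by 0.34 on the log2 scale (SE 0.07, edgeR adjusted p 0.033). The adjusted p of Acsl4 was 0.035 without Sora-treated tumor 3. Leaving out control tumor 1, 3 or 4 gave 0.11, 0.053 and 0.068, and leaving out Sora-treated tumor 2 or 4 gave 0.13 in either case. On the filtered log2 FPKM scales limma gave an adjusted p of 0.050 and 0.053 for Acsl4.

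Ephx1, a microsomal epoxide hydrolase best known for handling foreign compounds, was at 118, 128 and 126 CPM in the controls and at 66.2, 103 and 72.2 CPM in the Sora-treated tumors. Sora-treated tumor 3 was nearest to the controls, as it was for Ptgs2 and Ptges. Ephx1 fell by 0.62 on the log2 scale (SE 0.14, edgeR adjusted p 0.039). Its adjusted p was 0.00091 without Sora-treated tumor 3. It was 0.075, 0.088 and 0.11 without control tumor 1, 3 or 4, and 0.12 and 0.19 without Sora-treated tumor 2 or 4. With robust estimation of the spread in edgeR it was 0.068, and on the filtered log2 FPKM scales limma gave 0.063 and 0.066.

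**Figure D4:**
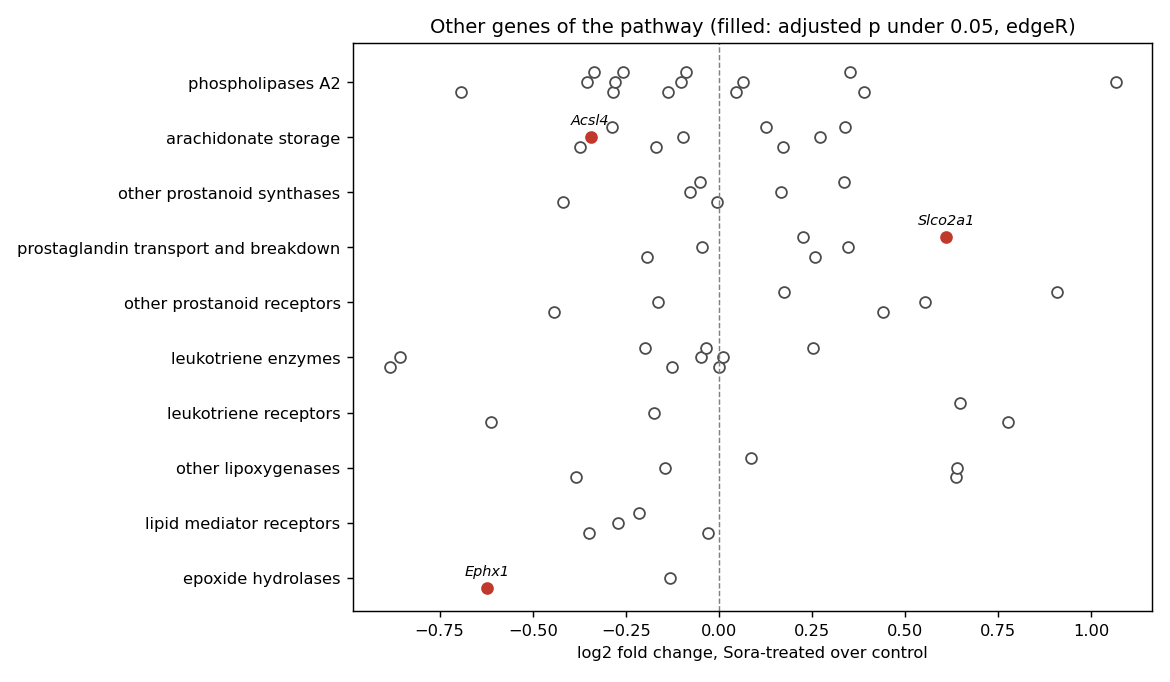
The log2 fold change, Sora-treated over control, of the 65 other pathway genes tested, grouped by role, with the 3 genes called by edgeR filled and named. Slco2a1 lies at 0.61, Acsl4 at -0.34 and Ephx1 at -0.62, and the gene farthest from 0, a phospholipase at 1.07, was not called.

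In the other 7 roles edgeR called 0 genes. At an unadjusted p under 0.05, which 17.2% of all genes passed, it gave 3 of 14 phospholipases A2, 1 of 6 other synthases, 1 of 6 other prostanoid receptors, 2 of 9 leukotriene enzymes, 1 of 4 leukotriene receptors, 0 of 5 other lipoxygenases and 2 of 4 receptors for other lipid mediators. Among the phospholipases A2, 5 were higher and 9 lower, and Pla2g4a, the cytosolic enzyme that supplies both branches, had a log2 fold change of -0.09 (edgeR adjusted p 0.71). The farthest from 0 was Pla2g4e at 1.07 (edgeR adjusted p 0.45), measured at 0.184 to 2.11 CPM. The role labeled arachidonate storage holds Acsl4 and also enzymes that cleave lipids. Its gene farthest from 0 was Faah, which cleaves anandamide, at -0.37 (edgeR adjusted p 0.22). Among 6 other prostanoid synthases, the thromboxane synthase Tbxas1 was at 30.2, 35.8 and 29.6 CPM in the controls and at 23.4, 25.8 and 22.3 CPM after Sora. The groups did not overlap for Tbxas1, and its log2 fold change of -0.42 had an edgeR adjusted p of 0.051. Ptges3, a cytosolic prostaglandin E synthase and chaperone partner, had a log2 fold change of -0.05 (edgeR adjusted p 0.83).

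Of 6 other prostanoid receptors, the one with the largest difference was Ptgfr, which binds prostaglandin F2α. Its log2 fold change of 0.91 (edgeR adjusted p 0.25) came mainly from Sora-treated tumor 2, at 5.08 CPM, while the other tumors had 1.34 to 2.14 CPM. Among 9 leukotriene enzymes, 2 were higher and 7 lower. Ltc4s, which makes leukotriene C4 and works after Alox5, was at 2.68, 3.04 and 1.56 CPM in the controls and at 1.66, 1.58 and 0.694 CPM after Sora. The groups overlapped, with a log2 fold change of -0.88 (edgeR adjusted p 0.27). Lta4h, which makes leukotriene B4, had 65.5 ± 3.32 CPM in the controls and 65.5 ± 1.94 CPM after Sora.

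Among 4 leukotriene receptors, Ltb4r2 had a log2 fold change of 0.78 (edgeR adjusted p 0.46) on 10 to 45 reads per library. In the other direction, Cysltr2, a receptor of cysteinyl leukotrienes, was at 8.78, 9.40 and 7.24 CPM in the controls and 5.27, 6.25 and 5.07 CPM after Sora. The groups were apart, with a log2 fold change of -0.61 (edgeR adjusted p 0.074). The groups were also apart for the leukotriene B4 receptor Ltb4r1, at 0.65 (edgeR adjusted p 0.30). Of 5 other lipoxygenases, Alox12e differed most, at 0.64 (edgeR adjusted p 0.36). The 4 receptors for other lipid mediators were all lower in mean, with Cmklr1, a receptor of chemerin and resolvin E1 on myeloid cells, at -0.35 (edgeR adjusted p 0.070). None of these differences passed the test.

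Both EP2 and EP4 act through cAMP, so a list of 12 genes known to respond to cAMP was read beside the receptors. All 12 were tested, 3 were up-regulated and 0 down-regulated, 8 were higher and 4 lower, and the median log2 fold change was 0.10. Over all genes tested, 1.94% were up-regulated. Areg, a ligand of the EGF receptor, was at 13.3, 19.7 and 16.2 CPM in the controls and at 66.1, 33.2 and 71.7 CPM in the Sora-treated tumors. Areg was lowest of the Sora group in tumor 3, as Ptgs2 was, but that tumor was still above all controls. Areg rose by a log2 fold change of 1.80 (SE 0.25, edgeR adjusted p 0.0087). The phosphatase Dusp1 rose by 0.74 (SE 0.12, edgeR adjusted p 0.013), from 64.5 ± 10.3 to 107.5 ± 9.77 CPM. The kinase Sik1 rose by 0.39 (SE 0.08, edgeR adjusted p 0.025), from 108.3 ± 6.43 to 142.2 ± 8.40 CPM. Without Sora-treated tumor 4 the edgeR adjusted p was 0.058 for Areg, 0.085 for Dusp1 and 0.13 for Sik1. With robust estimation of the spread it was 0.077 for Areg. For Sik1 it was also 0.084 and 0.073 without control tumor 1 or 4 and 0.063 without Sora-treated tumor 2. Lower in mean, with groups apart but not called, were the cAMP phosphodiesterases Pde4b (log2 fold change -0.19, edgeR adjusted p 0.26) and Pde4d (-0.23, edgeR adjusted p 0.21). The rest of the list was not called and the groups overlapped. These genes were Nr4a1 (0.23), Nr4a2 (0.16), Nr4a3 (0.07), Crem (-0.03), Per1 (0.13), Ppargc1a (0.04) and Rgs2 (-0.21). The 3 called genes respond to many other stimuli as well, and the part of prostaglandin receptors in these differences was not tested.

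**Figure D5:**
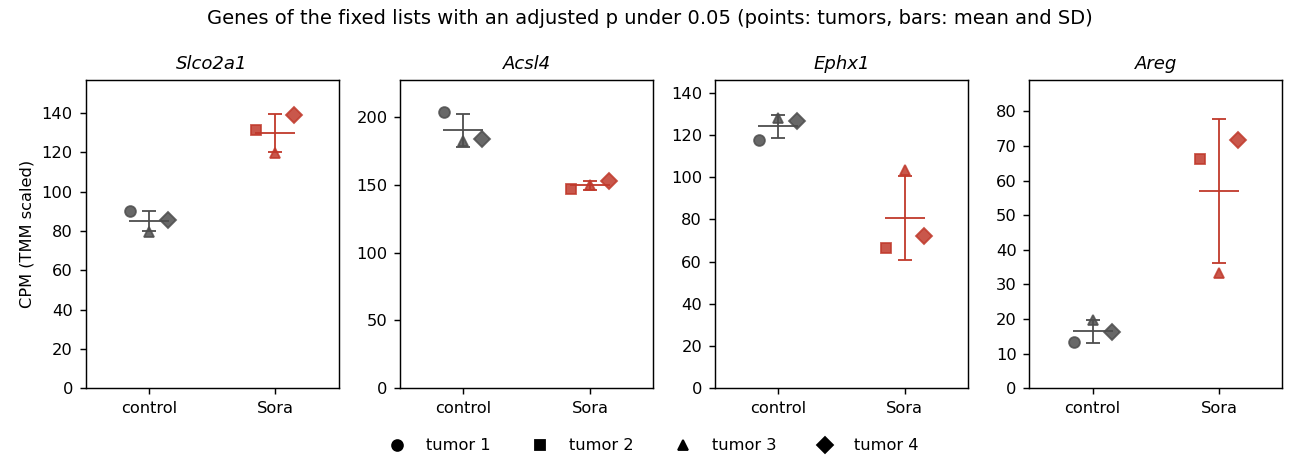
Level (TMM-scaled CPM, each axis from 0) of Slco2a1, Acsl4, Ephx1 and Areg in each tumor, with the tumor number as the marker and the mean and SD as bars. In each gene the 3 Sora-treated tumors lie apart from the 3 controls, and Sora-treated tumor 3 is nearest to the controls for Slco2a1, Ephx1 and Areg.

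Markers of the cells that commonly make or sense these mediators were read over whole lists, beside the 3.29% of all genes that were called. Of 12 macrophage markers, all 12 were lower in mean and 1, Mertk, was called (log2 fold change -0.45, edgeR adjusted p 0.031). Their summed level was 2042 to 2392 CPM in the controls and 1723 to 1985 CPM in the Sora-treated tumors, and 7 of the 12 were at an unadjusted p under 0.05 (17.2% over all genes). The means of Ptgs1, Ptger2, Ptger4, Tbxas1 and Cmklr1 were lower after Sora as well, while those of Alox5, Alox5ap and Hpgds, a prostaglandin D synthase, were higher (log2 fold changes 0.26, 0.01 and 0.34). With 1 tumor left out Alox5 ran from 0.026 to 0.49 and Alox5ap from -0.10 to 0.10. Of 10 tested neutrophil markers, 8 were higher and 1, S100a9, was called (log2 fold change 1.21, edgeR adjusted p 0.042). At an unadjusted p under 0.05 there were 6 of the 10, and the sums overlapped at 302 to 374 and 322 to 381 CPM. Mmp9, which other cells also make, held most of that sum and was lower in mean (log2 fold change -0.23), as was Ltf (-0.39). Without Mmp9 the sums were 84.3 to 94.9 CPM in the controls and 118 to 187 CPM after Sora, which did not overlap. That sum was read after the values were seen, and leaving out a lower marker favors such a gap. The groups did not overlap in 22.2% of all single genes tested. The defining neutrophil marker Ly6g had only 3 to 11 reads per library. Of 9 tested mast cell markers 5 were higher and 4 lower in mean, with a median log2 fold change of 0.04, and 1 was at an unadjusted p under 0.05. That marker, Hdc, was called (log2 fold change 1.01, edgeR adjusted p 0.046). The mast cell sums were 149.98 to 203 and 154 to 220.2 CPM. The calls of Mertk, S100a9 and Hdc held without Sora-treated tumor 3. Without any one of the other 5 tumors none of the 3 was called, with edgeR adjusted p of 0.055 to 0.16. Over all 19 alternatives with an adjusted p, Mertk was called in 10, S100a9 in 6 and Hdc in 7. The part of these cell lists in the values of the 10 genes was not tested.

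Among structural cells, 0 of 10 fibroblast markers, 0 of 10 endothelial markers, 0 of 10 smooth muscle and pericyte markers and 0 of 5 tested platelet markers were called by edgeR, with 3, 1, 2 and 0 at an unadjusted p under 0.05, against 3.29% called and 17.2% at an unadjusted p over all genes. Of the fibroblast markers 2 were higher and 8 lower in mean, with a median log2 fold change of -0.18 and a highest value of 0.27. Endothelial markers were 4 higher and 6 lower (median -0.10). Smooth muscle and pericyte markers were 8 higher and 2 lower (median 0.14), and tested platelet markers 4 higher and 1 lower (median 0.12). Fibroblast markers summed to 7745 to 8016 CPM in the controls and 5502 to 6903 CPM after Sora. The collagen genes Col1a1, Col1a2 and Col3a1 carried this difference, at 5761 to 6151 and 3497 to 4903 CPM. The other 7 markers summed to 1865 to 2076 and 1935 to 2005 CPM, which overlapped. Endothelial sums overlapped, at 306 to 348 and 245 to 338 CPM, as did those of smooth muscle and pericytes, at 651 to 859.9 and 636 to 869 CPM. The platelet markers summed to 79.1 to 87.2 CPM in the controls and 84.2 to 87.2 CPM after Sora, and Gp9 had 0 reads in every library. Keratinocyte markers were all 10 higher in mean and 0 called, with 1 at an unadjusted p under 0.05, and their sums of 344 to 1125 and 725 to 1047 CPM overlapped because control tumor 1 was the highest. Among 11 tested hepatoma markers, 5 were higher and 6 lower and 4 were called, or 36.4%. Alb and Ttr were down-regulated, with log2 fold changes of -0.55 and -2.15, and Apoa1 and Hnf4a up-regulated, at 1.03 and 0.80 (edgeR adjusted p 0.041, 0.0055, 0.047 and 0.013). Ttr was called without any one tumor, at an edgeR adjusted p of 0.0010 to 0.046. Hnf4a was not called without control tumor 4 (0.051) or Sora-treated tumor 4 (0.082). With 1 tumor left out, Alb was called only without control tumor 1 (0.036) or Sora-treated tumor 3 (0.022), against 0.094 to 0.18 without another tumor. With 1 tumor left out, Apoa1 was called only without Sora-treated tumor 3 (0.0027), against 0.10 to 0.15. Over all 19 alternatives Ttr was called in 18, Hnf4a in 15, Alb in 11 and Apoa1 in 7. The part of the Hepa1-6 cells in the values of the 10 genes was not tested.

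The genes whose pattern over the 6 tumors was nearest to that of Ptgs2 were found by the root mean square difference of log2(CPM + 1) centered on each gene's mean, over 14114 genes. They were Sprr1a, Gm32461, AA414768, Krt20 and Prkg2, at 0.052, 0.058, 0.061, 0.066 and 0.086, against a spread of Ptgs2 about its own mean of 0.31. For Alox5, whose own spread was 0.29, the nearest were Adcy4, Ackr4, Trim62, Mst1r and Nr1i3, at 0.075, 0.088, 0.095, 0.099 and 0.10. None of these 10 neighbors was called by edgeR, and with 6 tumors such a nearness is a description only.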

How the data were processed

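RNA was sequenced from 3 control and 3 Sora-treated Hepa1-6 tumors, grouped by the sample labels. The authors deposited raw counts per gene for 5 of the tumors and FPKM values, normalized by the authors for gene length and depth, for all 6. The study's methods name Bowtie2 and the GRCm38 build, whereas the submitters' processing notes list fastp, HISAT2, HTSeq, DESeq2, R 3.2.0 and GRCm39. The sources used here do not settle which was used, nor whether counting used strand. Counts of Sora-treated tumor 4 were recovered from its deposited FPKM values and the gene lengths: 20951 genes came out within 0.001 of a whole read (100.0%), and 342 genes without a length, holding 512 reads, were set to 0. On the 5 tumors with counts the same steps returned every recovered count.

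Counts were tested in edgeR 4.0.16 (R 4.3.3; TMM, quasi-likelihood, 3 against 3, a gene needed 10 counts or more in 3 or more tumors), with adjustment over all genes tested. Alternatives were DESeq2 1.42.0, limma 3.58.1 on voom and on log2(FPKM + 1) or log2(FPKM + 0.1), other scalings and filters, robust spread, a replicate block and leaving out each tumor. Number 1 occurs only among the controls and number 2 only among the Sora-treated tumors. The group difference with the replicate block therefore rests on tumors 3 and 4 of each group. The procedure was tested on simulated data. The columns of the authors' own comparison (fold changes and p-values) were not used. Genes named were the 10 members, called genes of the pathway, cAMP and cell marker lists, the gene with the largest difference per pathway role, and the 5 nearest in pattern to Ptgs2 and Alox5. Ptges3, Pla2g4a, Lta4h, Hpgds, Cysltr2, Ltb4r1, Pde4b, Pde4d, Serpina1a, Ly6g, Gp9, Mmp9 and the collagen genes were named for their role, after their values were seen. So were Abcc4, Ltf, Pla2g4f, Alox8, Alox12 and the other cAMP genes. The members and lists were chosen with earlier results of these data known. Members of gene families can share reads, which makes phospholipase and lipoxygenase paralogs less certain.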

Additional observations from a re-analysis of the deposited data

How the results depend on the processing

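Of 198 values of the 10 genes under alternatives, 183 kept direction and side of the threshold, 13 reversed (9 with a tumor left out) and 2 passed it, both for Ptgs2. All-gene calls (543) were 1195 by DESeq2, 1147 with no filter, 286 and 252 by limma on filtered log2(FPKM + 1) and log2(FPKM + 0.1), 0 on log2(FPKM + 1) of all genes (3115 at an unadjusted p under 0.05), 125 with the replicate block, 2844 unadjusted and 5 to 1145 with a tumor left out. Calls among the 10 (0) were 1 unadjusted and 0 to 1 with a tumor left out, the 1 being Ptgs2 without Sora-treated tumor 3. Pathway calls (3) were 6 by DESeq2, 6 with no filter, 1 and 1 on the filtered log2 FPKM scales, 0 on log2(FPKM + 1) of all genes (12 unadjusted), 17 unadjusted and 0 to 8 with a tumor left out, 0 being without Sora-treated tumor 4 and 8 without tumor 3. The causes were not tested.

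The reversals were as follows. Ptges2 was 0.065 with the block and -0.26 to 0.0083 with a tumor left out, Ptgis -0.14 to 0.32, Hpgd -0.077 to 0.39, Ptger4 -0.23 to 0.029 and Alox5ap -0.10 to 0.10. Without a reversal, but also moving with a tumor left out, were Ptgs1 (-0.24 to -0.059), Ptges (0.17 to 0.40), Ptger2 (-0.76 to -0.33) and Alox5 (0.026 to 0.49). Alox5ap was -0.0041 and -0.0046 with pseudocounts of 1 and 0.1 on the filtered FPKM scale and -0.0041 on all genes. An alternative chosen after seeing the data, DESeq2 without Sora-treated tumor 4, gave 491 calls, 0 among the 10 and 4 in the pathway, and 0.012 for Ptger4. Ptger2, under 1 FPKM, could not be fitted on the filtered FPKM scale. Control and Sora-treated tumors share the numbers 3 and 4, but same-numbered tumors did not deviate together (r = -0.033 and -0.074). The replicate block, whose group difference rests on tumors 3 and 4 of each group, called 0 of the 10 and 2 pathway genes, Slco2a1 and Pla2g2f. With 3 tumors a group, intervals of the rarer genes span more than 1 log2 unit, so a p over the threshold does not show equal levels.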

Other observations

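Some enzymes of the wider pathway are known from the epidermis, and 5 of them were read, after their values were seen, beside the summed level of 10 keratinocyte markers. That sum was 1125, 344 and 424 CPM in control tumors 1, 3 and 4, against 1047, 755 and 725 CPM for tumors 2, 3 and 4 of the Sora group. Pla2g2f, a secreted phospholipase of skin, was at 26.5, 9.30 and 9.35 CPM in the controls and at 27.0, 15.3 and 16.8 CPM after Sora. Pla2g4e was at 1.81, 0.184 and 0.329 CPM in the controls and at 2.11, 1.22 and 1.51 CPM after Sora. Alox12b, a lipoxygenase of the skin barrier, was at 1.65, 0.430 and 0.768 CPM and at 1.82, 1.40 and 1.21 CPM. Aloxe3, which acts after Alox12b in the skin barrier, was at 1.93, 0.706 and 1.86 CPM and at 1.85, 1.34 and 1.60 CPM. Alox12e, another epidermal lipoxygenase, was at 5.20, 2.64 and 3.81 CPM and at 6.87, 7.98 and 3.29 CPM. For the marker sum and the first 3 genes, control tumor 1 and Sora-treated tumor 2 were the 2 highest libraries, whereas for Aloxe3 they were control tumors 1 and 4 and for Alox12e Sora-treated tumors 2 and 3. Control tumor 3 was the lowest for the sum and for these 5 picked genes. For other genes of the same roles the lowest differed. It was control tumor 4 for Pla2g4f (1.18 CPM), Sora-treated tumor 4 for Alox12 (0.151 CPM) and Sora-treated tumor 3 for Alox8 (0.119 CPM). Sprr1a, the gene nearest in pattern to Ptgs2, is also a gene of cornified epithelium. It was at 232, 199 and 224 CPM in the controls and at 289, 201 and 338 CPM after Sora. Its highest library was thus Sora-treated tumor 4, whereas that of the marker sum was control tumor 1. The part of skin in these values was not tested.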
